A study of Mus musculus with 6 samples.

Results

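Acod1, Lrp2, Prap1 and Cbr2 are treated here as epithelial target genes of progesterone in the uterus. They were picked by name, so all 4 rows whose gene symbol matched were used, out of 21900 genes with a value, and all 4 passed the filter on low values that left 12979 genes. Whole uteri were taken on gestational day 4, with the day of the vaginal plug counted as day 1, from females mated with fertile males at 6 to 8 weeks of age. The groups were 3 libraries labelled Mettl3 d/d and 3 labelled Mettl3 f/f. By the usual notation f/f is a floxed allele of Mettl3, whose product is the catalytic subunit of the writer of N6-methyladenosine on RNA, and d/d is its deleted form. The labels name no Cre driver and no deleted exons. They also do not tie replicates to separate animals, so every p-value here reflects library-to-library spread only.

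Progesterone acts through its nuclear receptor in the stroma and the epithelium of the uterus. In the luminal epithelium it opposes the growth and secretory programme of estrogen around the time at which the mouse embryo attaches, and a set of epithelial genes is switched on with it. Lrp2 encodes megalin, a very large receptor of the low density lipoprotein receptor family that takes up vitamin-carrier proteins and lipoproteins at the apical face of absorptive epithelia. Acod1, formerly Irg1, encodes the mitochondrial enzyme that makes itaconate from cis-aconitate. It is best known from activated macrophages and is also made by the uterine epithelium before implantation. Cbr2 encodes a carbonyl reductase that uses NADPH, known from airway epithelium and also seen in some tissue macrophages. Prap1 encodes a small secreted proline-rich acidic protein of the epithelium of the intestine and the pregnant uterus.

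The values are FPKM, mapped fragments scaled to gene length and to library size. The libraries had values above 0 for 15965 to 16345 genes, and the absolute depth is unknown. Mettl3 stood at 42.9, 30.1 and 46.5 FPKM in d/d replicates 1, 2 and 3, against 30.3, 29.8 and 26.3 FPKM in f/f replicates 1, 2 and 3. A value over the whole gene includes exons that a deletion may leave in place, so it checks no label, and d/d means labelled d/d throughout. The d/d libraries differed in their cell type markers. The summed level of 8 macrophage markers was 1568, 6488 and 531 FPKM in d/d replicates 1, 2 and 3, against 429 to 518 FPKM in f/f libraries. That of 13 epithelial markers was 3682, 1252 and 5026 FPKM in the same d/d libraries, against 1951 to 1981 FPKM in f/f libraries. In whole uteri, fewer cells of a type and less RNA per cell cannot be told apart.

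**Figure D1:**
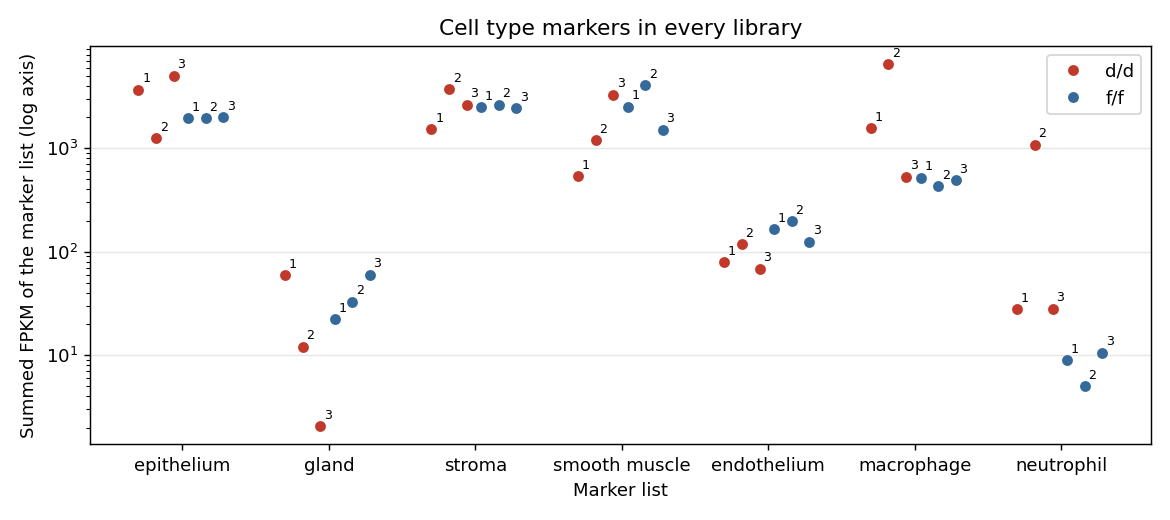
Summed FPKM of 7 lists of cell type markers (log axis) in each library, with d/d libraries in red and f/f libraries in blue and the replicate number beside each point. The d/d replicate 2 point lies highest for macrophages at 6488 and for neutrophils at 1081, and lowest of all libraries for epithelium at 1252.

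In f/f uteri Cbr2 was the most abundant of the 4 genes and Prap1 the least, on the FPKM scale. Cbr2 stood at 131, 134 and 394 FPKM, Acod1 at 76.3, 61.0 and 73.1, Lrp2 at 41.7, 45.1 and 39.1, and Prap1 at 9.47, 4.48 and 9.85 in f/f replicates 1, 2 and 3. No neighbours in this order overlapped. By their f/f means, Cbr2 was above 97.7% of the genes that passed the filter, Acod1 above 89.7%, Lrp2 above 81.1% and Prap1 above 33.1%. The order in d/d libraries was not the same. Prap1 was above Lrp2 in every d/d library, and in d/d replicate 3 it was also above Acod1.

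The RefSeq and GENCODE annotations place the start of each of the 4 genes differently, by 35 bases for Acod1, 36 for Lrp2, 1 for Prap1 and 93 for Cbr2, with the GENCODE start the farther upstream. The 100 bases before that outer start (RefSeq sequence, build GRCm38.p6) are shown because the 4 genes are grouped by response to a hormone receptor, and capitals mark the CG pairs. The stretch of Acod1 lies at chr14:103046877-103046976 (plus strand), that of Lrp2 at chr2:69586066-69586165 (minus strand), that of Prap1 at chr7:140093295-140093394 (plus strand) and that of Cbr2 at chr11:120732115-120732214 (minus strand).
Acod1: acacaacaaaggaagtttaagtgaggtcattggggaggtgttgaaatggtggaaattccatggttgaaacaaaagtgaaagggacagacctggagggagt
Lrp2: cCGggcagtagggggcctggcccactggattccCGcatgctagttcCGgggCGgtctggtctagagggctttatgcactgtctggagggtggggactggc
Prap1: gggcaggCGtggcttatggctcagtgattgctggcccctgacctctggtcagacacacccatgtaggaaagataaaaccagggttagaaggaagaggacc
Cbr2: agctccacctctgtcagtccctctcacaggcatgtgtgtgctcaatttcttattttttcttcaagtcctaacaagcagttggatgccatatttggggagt

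Lrp2 held 4 CG pairs, Prap1 1, and Acod1 and Cbr2 held 0. G and C made up 44.0% of the bases of Acod1, 66.0% of Lrp2, 55.0% of Prap1 and 45.0% of Cbr2. Over 27025 RefSeq promoters the medians in the 100 bases before the RefSeq start were 3 CG pairs and 55.0%. Over the longer window of 250 bases before to 50 bases after the RefSeq start, 3 receptor motifs were searched on both strands. They were ACANNNTGT, the core of the palindrome bound by the progesterone receptor and its relatives, the shorter element TGTTCT, and the palindromic estrogen response element. These letters were in 0 of the 4 windows, and in 6.91%, 19.0% and 0.0666% of all 27025 promoters. No match says only that these letters are not in this window.

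None of the 4 genes was called different between genotypes. With limma on log2(FPKM + 1) and Benjamini-Hochberg adjustment over all genes, 0 of 4 passed an adjusted p under 0.05, where 7.30% of all 12979 genes did. At an unadjusted p under 0.05 there were 2, Lrp2 and Cbr2, where 26.7% of all genes were. Both Lrp2 and Acod1 had negative log2 fold changes (d/d minus f/f), and both Prap1 and Cbr2 had positive ones. The median over the 4 genes was -0.29, against 0.02 over all genes tested. In 1 of the 4 genes, Lrp2, every d/d library was outside the f/f range, on the low side. Of all genes, 35.9% had no overlap between genotypes in either direction, and 17.8% had none with d/d lower.

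**Figure D2:**
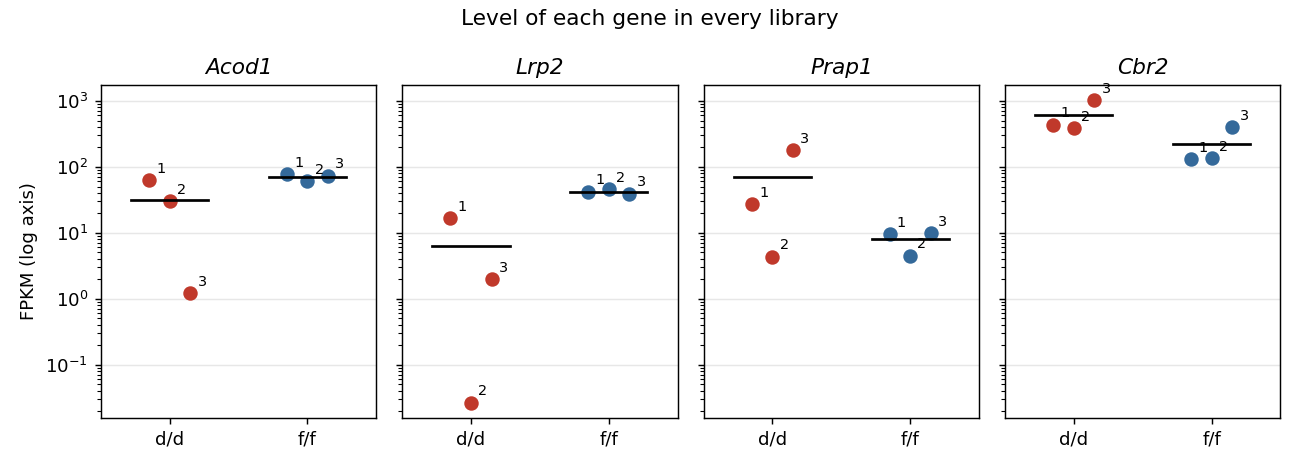
FPKM (log axis) of the 4 genes in each library, with d/d in red left of f/f in blue, the replicate number beside each point and a bar at the mean of 3 libraries. The f/f libraries of Acod1 and Lrp2 lie close together, while the d/d libraries spread from 62.2 to 1.21 FPKM for Acod1 and from 16.7 to 0.0265 FPKM for Lrp2.

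Lrp2 (ENSMUSG00000027070, chromosome 2, 69424340 to 69586065, minus strand, GRCm38), the gene of the endocytic receptor megalin, was lower in every d/d library than in any f/f library. It stood at 16.7, 0.0265 and 1.95 FPKM in d/d replicates 1, 2 and 3, against 41.7, 45.1 and 39.1 FPKM in f/f replicates 1, 2 and 3. These d/d values were 39.7%, 0.0632% and 4.65% of the f/f mean. The genotypes were apart by more than the range of the f/f libraries, and the d/d libraries differed among themselves by 628-fold. In d/d replicate 2, only 6 of the 12979 genes had a lower log2 ratio to the f/f mean than Lrp2, and in d/d replicate 3 there were 35.

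The means of Lrp2 were 6.22 ± 9.11 FPKM in d/d and 42.0 ± 3.01 FPKM in f/f uteri (SD, n = 3 each). On the log2 scale d/d minus f/f was -3.51, with an SE of 0.96 and a 95% interval of -5.83 to -1.18 (adjusted p = 0.0791, limma). The exact two-sided permutation test gave p = 0.1, the smallest possible for groups of 3. With d/d replicate 1 left out, the library with the highest d/d level, the log2 fold change was -4.62 and passed (limma adjusted p = 0.0105). With d/d replicate 2 left out, the library with the lowest level, it was -2.57 and did not pass (limma adjusted p = 0.0803). It also passed with all libraries and a separate weight for each genotype (limma adjusted p = 0.0410), and over 13 alternatives the adjusted p ran from 2.11e-09 to 0.237.

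Acod1 (ENSMUSG00000022126, chromosome 14, 103046977 to 103056573, plus strand), the itaconate enzyme gene, was near its f/f level in d/d replicate 1 and far below it in d/d replicate 3. It stood at 62.2, 30.1 and 1.21 FPKM in d/d replicates 1, 2 and 3, against 76.3, 61.0 and 73.1 FPKM in f/f replicates 1, 2 and 3. These d/d values were 88.6%, 42.9% and 1.73% of the f/f mean. The d/d replicate 1 value lay within the f/f range, so the genotypes overlapped. In d/d replicate 3, 11 of the 12979 genes had a lower log2 ratio to the f/f mean, whereas in d/d replicate 1 there were 4373.

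The means of Acod1 were 31.1 ± 30.5 FPKM in d/d and 70.1 ± 8.05 FPKM in f/f uteri (SD, n = 3 each). The log2 fold change of -2.12 had a 95% interval of -4.97 to 0.73 (limma adjusted p = 0.302, exact two-sided permutation p = 0.2). The value rested on d/d replicate 3, and with that library left out it was -0.68 (limma adjusted p = 0.223). Leaving out d/d replicate 1 gave -3.10 (limma adjusted p = 0.137).

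Cbr2 (ENSMUSG00000025150, chromosome 11, 120729489 to 120732114, minus strand), the carbonyl reductase gene, stood at 434, 388 and 1023 FPKM in d/d replicates 1, 2 and 3, against 131, 134 and 394 FPKM in f/f replicates 1, 2 and 3. The d/d values were 198%, 177% and 466% of the f/f mean. Replicates 1 and 2 of f/f lay well under every d/d library, and f/f replicate 3 lay slightly above d/d replicate 2, so the genotypes overlapped by that pair alone. Replicate 3 had the highest value in both genotypes. Replicates of the same number did not deviate together over all genes, so the numbers were not taken as pairs.

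The means of Cbr2 were 615 ± 354 FPKM in d/d and 220 ± 151 FPKM in f/f uteri (SD, n = 3 each). On the log2 scale d/d minus f/f was 1.54, with an SE of 0.55 and a 95% interval of 0.20 to 2.88 (adjusted p = 0.141, limma), with an exact two-sided permutation p of 0.2. Scaled to epithelial markers it was 0.78 (limma adjusted p = 0.420).

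Prap1 (ENSMUSG00000025467, chromosome 7, 140093395 to 140097200, plus strand), the secreted protein gene, lay above its f/f range in d/d replicates 1 and 3 and below it in d/d replicate 2. It stood at 27.3, 4.33 and 177 FPKM in d/d replicates 1, 2 and 3, against 9.47, 4.48 and 9.85 FPKM in f/f replicates 1, 2 and 3. The d/d values were 344%, 54.6% and 2231% of the f/f mean. Replicates 1 and 3 of d/d lay above every f/f library, and d/d replicate 2 lay just under the lowest. In d/d replicate 3, 31 of the 12979 genes had a higher log2 ratio to the f/f mean.

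The means of Prap1 were 69.6 ± 93.8 FPKM in d/d and 7.94 ± 3.00 FPKM in f/f uteri (SD, n = 3 each). The log2 fold change of 1.81 had a 95% interval of -1.08 to 4.70 (limma adjusted p = 0.380, exact two-sided permutation p = 0.4). Leaving out d/d replicate 2 gave 3.05 (limma adjusted p = 0.0692), and leaving out d/d replicate 3 gave 0.52 (limma adjusted p = 0.685). Prap1 overlaps Fuom, a fucose metabolism gene on the other strand, by 431 bp, and no source used here says whether strand was used. Fuom stood at 65.9, 62.5 and 139.5 FPKM in d/d replicates 1, 2 and 3, against 33.3, 37.5 and 35.9 FPKM in f/f libraries. Both genes were above their f/f ranges in d/d replicates 1 and 3, and only Fuom was in d/d replicate 2. The part of Fuom in the values of Prap1 was not tested.

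The spread among d/d libraries was itself large for 3 of the 4 genes. The SD of log2(FPKM + 1) was 2.55 in d/d and 0.17 in f/f libraries for Acod1, 2.08 and 0.10 for Lrp2, and 2.53 and 0.55 for Prap1. The median gene had an SD of 0.30 in d/d and 0.13 in f/f libraries. Ranked by the d/d SD among 12979 genes, Acod1 stood 32nd, Prap1 34th and Lrp2 85th from the top. For Cbr2 the SD was 0.76 in d/d and 0.90 in f/f libraries, and its f/f SD ranked 76th from the top.

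The 4 genes did not share 1 order over the d/d libraries. Acod1 was highest in d/d replicate 1 and lowest in d/d replicate 3. Lrp2 was highest in d/d replicate 1 and lowest in d/d replicate 2. Prap1 and Cbr2 were both highest in d/d replicate 3 and lowest in d/d replicate 2. Pearson's r of log2(FPKM + 1) over the 6 libraries was 0.64 for Acod1 with Lrp2 and 0.77 for Prap1 with Cbr2, and between -0.27 and -0.81 for the other 4 pairs. These are descriptions of 6 libraries that share their genotype groups.

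Ratios of genes within a library need no scaling between libraries. They did not overlap between genotypes in 4 of the 6 pairs. These are the pairs of 1 gene with a negative and 1 with a positive fold change. Of all pairs of genes above 0 in every library, 37.5% did not overlap. Opposite signs move a ratio apart between genotypes, and the 6 pairs reuse 4 genes. The share of all pairs, which takes in pairs of the same sign, is thus not a like background. Lrp2 over Prap1 was 0.611, 0.00613 and 0.0110 in d/d replicates 1, 2 and 3, against 4.41, 10.1 and 3.97 in f/f replicates 1, 2 and 3. Acod1 over Prap1 was 2.28, 6.94 and 0.00684 in the same d/d libraries, against 8.05, 13.6 and 7.42 in f/f libraries. Each d/d library had less Lrp2 and less Acod1 per unit of Prap1, and likewise per unit of Cbr2, than any f/f library. The ratio of Acod1 to Lrp2 overlapped, at 3.73, 1132 and 0.620 in d/d libraries, against 1.83, 1.35 and 1.87 in f/f libraries.

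Because the amount of epithelium may differ, the levels were also set against epithelial markers. The geometric mean of the epithelial genes Krt8, Krt18, Krt19, Epcam and Cdh1 was 244, 105 and 333 FPKM in d/d replicates 1, 2 and 3, against 115, 111 and 137 FPKM in f/f replicates 1, 2 and 3. Not all epithelial markers had this pattern, since the claudin gene Cldn3 stood at 390, 76.3 and 295 FPKM in d/d libraries, against 433, 466 and 483 FPKM in f/f libraries. Relative to the geometric mean, Acod1 was at 43.7%, 49.1% and 0.624% of the f/f mean in d/d replicates 1, 2 and 3, and Lrp2 at 19.4%, 0.0717% and 1.67%. Both genes then had no overlap between genotypes, with an exact two-sided permutation p of 0.1 each. With this division 21.3% of all genes were lower without overlap, and 23.5% had no overlap in either direction. Prap1 was at 172%, 63.4% and 819% and Cbr2 at 102%, 212% and 177%, and both overlapped the f/f libraries (exact permutation p = 0.4 and 0.2). In a fit of all genes scaled this way, Acod1 and Lrp2 had log2 fold changes of -2.88 and -4.27 (limma adjusted p = 8.63e-05 and 2.11e-09). The scaling moved the log2 fold change of every gene by the same -0.76, and the median of all genes to -0.74. That fit also gave all genes of like level 1 common spread, so its p-values do not reflect the wide spread of these 2 genes among d/d libraries.

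**Figure D3:**
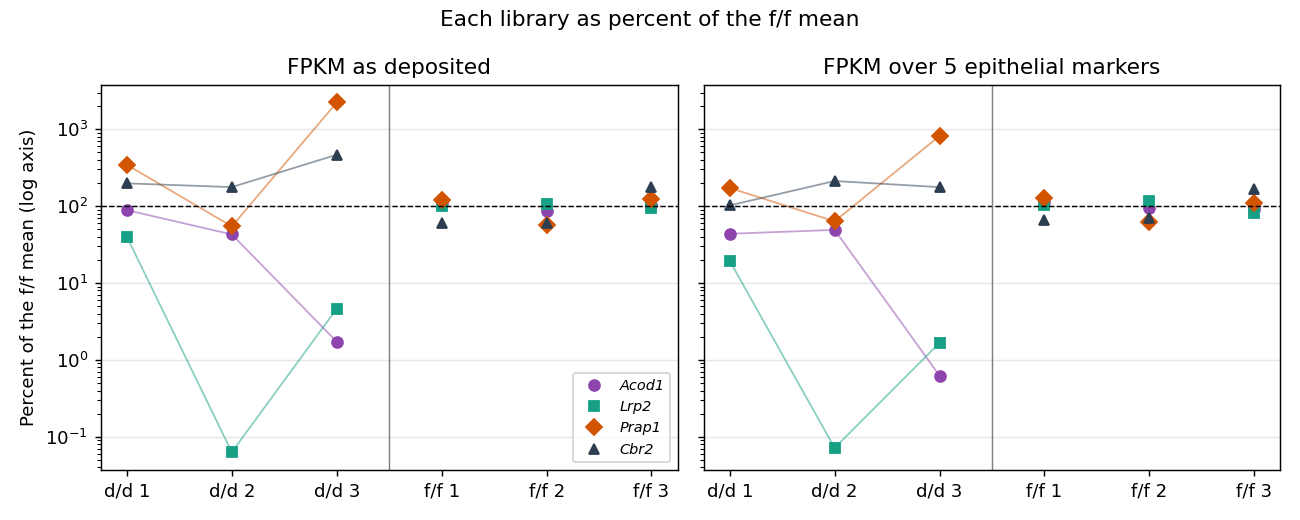
Each library's value as percent of the f/f mean (log axis), from FPKM as deposited (left) and after division by the geometric mean of 5 epithelial markers (right), with d/d libraries left of the grey line. Acod1 in d/d replicate 1 moves from 88.6% to 43.7% with the division, and Lrp2 in d/d replicate 2 stays near the bottom of both panels at 0.0632% and 0.0717%.

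Macrophage markers are given beside Acod1 and Cbr2, which such cells can also express. Leaving out f/f replicate 1 left 0 genes called by limma (2292 at an unadjusted p under 0.05), so each call of a single gene given from here on was lost without that library. Cd68, a lysosomal macrophage marker gene, rose, at 98.2, 231 and 69.2 FPKM in d/d replicates 1, 2 and 3, against 22.9, 15.7 and 23.7 FPKM in f/f libraries (log2 fold change 2.45, limma adjusted p = 0.0310). Of 8 macrophage markers, 1 was called higher and 0 lower, where 3.49% of all genes were called higher. Their median log2 fold change was 1.67, and none was listed at 0. Among d/d libraries Acod1 was highest in replicate 1 and Cbr2 in replicate 3, and the summed macrophage markers were highest in replicate 2. The single markers did not all follow their sum. In d/d replicate 3, where the sum was 531 FPKM, they ranged from 74.6% (Lyz2) to 1378% (Itgam) of their f/f means. Of 7 neutrophil markers Elane was listed at 0 in all 6 libraries, and their sum was 27.7, 1081 and 28.2 FPKM in d/d replicates 1, 2 and 3, against 5.03 to 10.6 FPKM in f/f libraries. In d/d replicate 3 Ly6g, at 25.0 FPKM, held most of that sum. Of the 4 neutrophil markers that passed the filter, 1 was above its f/f mean on the log2 scale in that library. The part of these cells in the values of the 4 genes was not tested.

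Epithelial identity genes were present in every library. Of 13 epithelial markers, 3 were called higher and 0 lower (median log2 fold change 0.76), where 3.49% of all genes were called higher. In d/d replicate 2, 5 of the 13 were above their f/f mean on the log2 scale, against 12 in d/d replicates 1 and 3 each. Epcam, an epithelial adhesion gene, rose to 281 ± 127 FPKM in d/d uteri, against 89.6 ± 9.23 FPKM in f/f uteri (SD, n = 3 each, limma adjusted p = 0.0452). The keratin gene Krt7 also rose, by a log2 fold change of 2.61. Of 5 gland markers 3 passed the filter, and Ttr fell (limma adjusted p = 0.0258), at 0.119 FPKM in d/d replicate 1 and listed at 0 in d/d replicates 2 and 3, against 1.89, 4.70 and 6.94 FPKM in f/f libraries. Foxa2 and Cxcl15 were not called (limma adjusted p = 0.451 and 0.483). In d/d replicate 1 Foxa2 was at 103% and Cxcl15 at 209% of the f/f mean. Cxcl15, at 49.1 FPKM there, held most of the summed level of the gland markers in that library. The sum of the gland markers was 59.8, 12.1 and 2.07 FPKM in d/d replicates 1, 2 and 3, which is the order that Acod1 had over the same libraries. It was 22.4, 33.0 and 60.0 FPKM in f/f replicates 1, 2 and 3, where Acod1 had another order and a narrow range, and its part in the values of Acod1 was not tested.

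Other epithelial progesterone targets gave the comparison group of the 4 genes. Of 10 measured, 3 were called lower, 0 higher and 7 did not pass, with a median log2 fold change of -2.84. Where 3.81% of all genes were called lower, 0 of the 4 genes and 3 of these 10 were. The list was chosen with earlier results of these data known, so its count is not an independent comparison. The number called among these 10 was 9 when scaled to epithelial markers, 7 without d/d replicate 1, 5 without d/d replicate 2, 1 with a replicate block, and 0 without f/f replicate 1 or 2. Areg, an epidermal growth factor family ligand gene, fell to 0.448 ± 0.357 FPKM in d/d uteri, against 12.4 ± 6.35 FPKM in f/f uteri (SD, n = 3 each, limma adjusted p = 0.0118). It stood at 4.17%, 6.16% and 0.495% of the f/f mean in d/d replicates 1, 2 and 3. Il13ra2, a decoy receptor gene for interleukin 13, fell to 8.06%, 0.616% and 6.02% of the f/f mean in the same libraries (limma adjusted p = 0.00815).

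Hsd11b2, whose enzyme inactivates glucocorticoids, stood at 10.8%, 2.76% and 26.7% of the f/f mean in d/d replicates 1, 2 and 3 and was called lower (limma adjusted p = 0.0452). These 3 genes were far under the f/f range in d/d replicate 1, the library in which Acod1 was at 88.6% and Lrp2 at 39.7% of the f/f mean. Ihh, the hedgehog ligand gene of the epithelium, was like Acod1 in that library, at 83.3%, with 1.38% and 0.449% in the other two d/d libraries (limma adjusted p = 0.154). Sox17, an epithelial transcription factor gene, was at 115%, 14.8% and 33.7% (adjusted p = 0.266). Ihh and Sox17 were named after their values were seen. Calca, the calcitonin gene, was at 0.169 and 0.194 FPKM in d/d replicates 1 and 2 and listed at 0 in d/d replicate 3, against 2.88, 3.81 and 18.1 FPKM in f/f libraries (limma adjusted p = 0.0504).

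**Figure D4:**
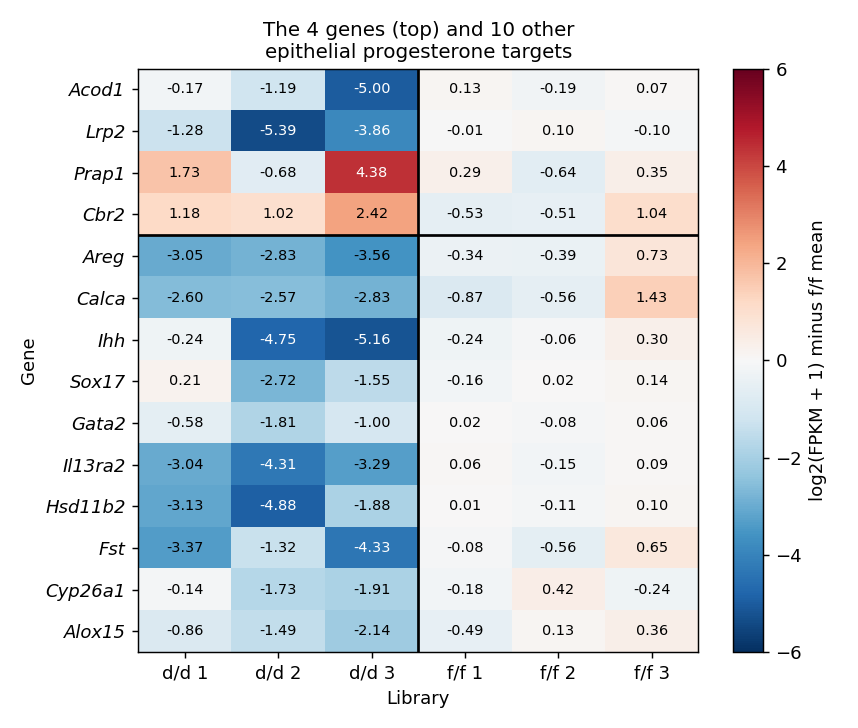
Difference in log2(FPKM + 1) from the f/f mean for the 4 genes (above the line) and 10 other epithelial progesterone targets in each library, d/d left of f/f. Areg, Calca, Il13ra2, Hsd11b2 and Fst are blue in d/d replicate 1, while Acod1 and Ihh are close to 0 there, and Prap1 and Cbr2 are red in d/d replicate 3.

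The receptor and the stromal targets were read from the same fit. Pgr, the progesterone receptor gene, stood at 49.2, 17.3 and 33.2 FPKM in d/d replicates 1, 2 and 3, against 23.9, 23.6 and 23.1 FPKM in f/f libraries (limma adjusted p = 0.553). Its lowest value was in d/d replicate 2, where Lrp2 and Prap1 were also at their lowest. Of 6 steroid receptor genes that passed the filter, 0 were called by limma, and the median log2 fold change was -0.12. In that list 1 gene, Pgrmc2, had an unadjusted p under 0.05. Of 10 stromal targets, 7 were called lower and 0 higher (median -1.84), where 3.81% of all genes were called lower. The count of called stromal targets was 2 with a replicate block. Dropping f/f replicate 1 gave 0, and dropping either of the other f/f libraries gave 1. Dropping a single d/d library gave 7 or 8. Of 6 stromal cell markers, 0 were called (limma, 2 at an unadjusted p under 0.05, median -0.05), and their sum was 1518, 3685 and 2631 FPKM in d/d replicates 1, 2 and 3, against 2432 to 2630 FPKM in f/f libraries. Of these markers Vim was at 211, 403 and 174 FPKM in d/d libraries, against 562, 575 and 649 FPKM in f/f libraries. Pdgfra was also lower in every d/d library. In d/d replicate 2 it was at 31.7 FPKM, near its lowest f/f value of 32.5 FPKM. The other markers had log2 fold changes of -0.24 (Col3a1), 0.15 (Col1a1), 0.62 (Dcn) and 0.98 (Lum). The part of the stromal markers in the values of the stromal targets was not tested. Among the targets Hoxa10, a homeobox gene of the stroma, fell in all 3 d/d libraries to 45.3 to 66.6 FPKM, against 235 to 279 FPKM in f/f libraries (limma adjusted p = 0.00608). Of 10 epithelial genes that estrogen raises, 7 were called higher and 0 lower (median 3.40), where 3.49% of all genes were called higher. The number called among them was 4 with a replicate block, 0 without f/f replicate 1 or 2, and 1 without f/f replicate 3. Prap1 and Cbr2 also had positive log2 fold changes, without passing the test. In d/d replicate 2 all 10 of the estrogen-raised genes were above their f/f mean on the log2 scale. Cbr2 was above its own there (log2 ratio 1.02), and Prap1 was below (log2 ratio -0.68).

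Genes that work with megalin were measured beside Lrp2. Lrpap1, whose product is the chaperone that folds receptors of this family, fell to 101 ± 22.2 FPKM in d/d uteri, against 200 ± 22.4 FPKM in f/f uteri (SD, n = 3 each, limma adjusted p = 0.0322). Clu, the gene of clusterin, a ligand of megalin, rose to 388, 555 and 289 FPKM in d/d replicates 1, 2 and 3, against 36.5, 50.3 and 70.5 FPKM in f/f libraries (log2 fold change 2.94, adjusted p = 0.0103). Cubn, the co-receptor of megalin in the kidney, was at most 0.142 FPKM in any library and did not pass the filter. Of 6 partners that passed it, 2 were called higher, 1 lower and 3 not called (median 0.19), where 7.30% of all genes were called.

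Relatives of Lrp2 had smaller differences. Of 9 genes of the low density lipoprotein receptor family that passed the filter, 2 were called higher, 0 lower and 7 were not called (median 0.33). Of all genes, 3.49% were called higher. Lrp5 and Lrp10 rose by 0.95 and 0.77 on the log2 scale (limma adjusted p = 0.0339 and 0.0310). The negative values with the lowest p were those of Vldlr and Sorl1, at -0.58 and -0.80 (adjusted p = 0.0846 and 0.134), against -3.51 for Lrp2.

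For Cbr2, the other carbonyl-reducing enzymes gave 0 called of 6 that passed the filter (limma, 2 at an unadjusted p under 0.05 where 26.7% of all genes were, median -0.29). Dcxr, a related reductase gene that lies 2207 bp from Cbr2 on the same strand, stood at 144, 59.5 and 161 FPKM in d/d replicates 1, 2 and 3, against 194, 190.0 and 182 FPKM in f/f libraries (limma adjusted p = 0.252). Every d/d value of Dcxr was under its f/f range, while d/d replicates 1 and 3 of Cbr2 were above the f/f range of Cbr2. Cbr3 had a log2 fold change of -0.53 and Akr1b3 of 0.50 (adjusted p = 0.0844 and 0.147).

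For Acod1, 9 genes of citrate, aconitate and itaconate metabolism included 0 that were called (limma, 1 at an unadjusted p under 0.05 where 26.7% of all genes were, median -0.13). That gene was Clybl, which acts in the breakdown of itaconate, at a log2 fold change of -0.53 (adjusted p = 0.0744).

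For Prap1, whose product binds the triglyceride transfer protein in the intestine, 2 of 5 lipoprotein assembly genes passed the filter and 0 were called (limma, 1 at an unadjusted p under 0.05). Mttp, which encodes that transfer protein, stood at 1.67, 0.695 and 1.14 FPKM in d/d replicates 1, 2 and 3, against 3.15, 2.62 and 4.63 FPKM in f/f libraries (limma adjusted p = 0.0635). Its d/d values were all below its f/f values, while Prap1 was above its f/f range in 2 of the 3 d/d libraries.

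The genes with the pattern most like each of the 4 were taken by Pearson's r of log2(FPKM + 1) over the 6 libraries, among 1562 other genes with a range of at least 2 on that scale. For Prap1 the closest was the epithelial keratin gene Krt19 (r = 0.99), at 395, 143 and 772 FPKM in d/d replicates 1, 2 and 3, against 201, 136 and 227 FPKM in f/f libraries. It was followed by Ramp3, a partner gene of the calcitonin receptor family, Ifne, the interferon epsilon gene of the reproductive tract epithelium, Slc44a4 and Lrrc26 (r from 0.98 to 0.99). Against Krt19, whose d/d replicate 3 value was 410% of its f/f mean, Prap1 was at 2231%.

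For Lrp2 the closest were Ggt6, the lysophosphatidic acid receptor gene Lpar3, the pyruvate carboxylase gene Pcx, Ccdc189 and Ankrd29 (r from 0.99 to 1.00). Lpar3, which is needed for embryo spacing, stood at 30.0, 2.02 and 7.19 FPKM in d/d replicates 1, 2 and 3, against 45.7, 53.7 and 43.0 FPKM in f/f libraries. Its d/d libraries had the same order as those of Lrp2. For Acod1 the closest were the anchoring fibril collagen gene Col7a1, Acot1, the epithelial sodium channel gene Scnn1a, Shd and Tmem132c (r from 0.98 to 0.99). Col7a1 was at 47.8, 39.3 and 6.20 FPKM in d/d libraries, against 63.1, 58.7 and 53.1 FPKM in f/f libraries.

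For Cbr2 the closest were Tspan33, the membrane protease gene Tmprss4, the mucus protein gene Fcgbp, Scml4 and Ugt1a7c (r from 0.95 to 0.96). Tmprss4 stood at 20.5, 15.5 and 57.4 FPKM in d/d replicates 1, 2 and 3, against 6.46, 5.81 and 11.4 FPKM in f/f libraries. Like Cbr2 it was highest in replicate 3 of each genotype. With 6 libraries many genes share such a pattern: r exceeded 0.9 for 142 genes with Lrp2, 58 with Acod1, 53 with Prap1 and 32 with Cbr2.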

How the data were processed

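RNA of 6 whole uteri libraries (3 d/d, 3 f/f) was measured. Per the labels' protocols, RNA was extracted with TRIzol and an Illumina TruSeq RNA kit was used for the libraries. The submitters' processing notes name HISAT2 2.2.1, Cufflinks 2.2.1 and the builds mm9 and mm10. Annotation, options and strand use are not stated there. The authors deposited 1 value per gene and library, taken as FPKM: the file headers name no unit, the values are decimals, and Cufflinks writes FPKM. Read numbers are not given, so depth is unknown and no counting interval is printed. Values of close gene copies depend on how fragments with several matches were shared out, and a listed 0 may be a failed estimate. Several genes named beside the 4, among them Mttp, Clybl, Lrp10 and Krt7, overlap genes on the other strand.

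Of 21936 rows, 36 with a repeated symbol were dropped in favour of the row with the highest mean. Genes at 1 FPKM or more in at least 3 of 6 libraries were kept (12979). The test was limma 3.58.1 (R 4.3.3) on log2(FPKM + 1), with genotype as the only term, empirical Bayes with trend, p-values from both sides and adjusted by Benjamini-Hochberg across the genes kept. Fold changes are d/d minus f/f and understate the change of low genes. Replicate numbers were not used as pairs, because the deviations of same-numbered libraries from their group means correlated at -0.0202, 0.0203 and -0.0207. The 4 genes, the gene lists and the rule for named genes (up to 4 per list by p, and the 5 most alike per gene) were chosen with earlier results of these data known. Alternatives were a pseudocount of 0.1, no filter, 2 scalings, weights per genotype, no trend, a replicate block and each library left out. Gene positions are from GENCODE M21 (GRCm38), matched by gene ID. Some genes that fall under the rule for named genes are not reported here.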

Additional observations from a re-analysis of the deposited data

How the results depend on the processing

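Over 13 alternatives, the 4 genes kept the sign of their log2 fold change in all 52 values, and 48 of these stayed on the same side of the threshold. The others were calls of Acod1 and Lrp2 when scaled to epithelial markers (-2.88 and -4.27), of Lrp2 with a weight per genotype (-3.51) and of Lrp2 without d/d replicate 1 (-4.62). With 1 library left out, Lrp2 ran from -4.62 to -2.57, Acod1 from -3.10 to -0.68, Prap1 from 0.52 to 3.05 and Cbr2 from 1.10 to 2.06. The count of called genes, 947 with all libraries, ran from 0 to 1367 with 1 library left out (0 without f/f replicate 1, by limma, with 2292 at an unadjusted p under 0.05). It was 545 when scaled to epithelial markers, of which 11.7% were higher, against 47.8% in the fit as reported. In the gene lists, 28 genes were called, from 0 to 39 with 1 library left out. With the replicate block the counts were 100 and 9, no call of the 4 genes changed, and Cbr2 had an adjusted p of 0.0504. The numbers are not known to mark shared animals, and d/d replicate 1 correlated best with f/f replicate 3 (0.125). Of 299 values of 23 context genes, 57 lost a call and 9 gained one. The sign was kept in 297, and Akr1b3 (-0.26) and Pgr (-0.40) had the opposite sign when scaled to epithelial markers, which moves every gene by -0.76. The unknown depth limits what can be said of Lrp2 at 0.0265 FPKM.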
